A study of Mus musculus with 16 samples.

Results

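Skeletal muscle transcripts were measured in libraries made from mouse intervertebral discs, a cartilage-rich tissue that has no muscle fibres of its own. The 35 genes described here were taken by symbol from a fixed list of skeletal muscle genes, out of 49315 genes in the expression table, and all 35 were found. They comprise 8 thick filament genes, 8 thin filament genes, 8 genes of the Z-disc and the elastic scaffold, 5 calcium-handling genes, 4 genes of muscle energy metabolism and 2 myogenic regulators. By fibre type, 14 were fast fibre genes, 5 were slow fibre genes and 16 belonged to neither list.

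Gene expression had been measured by bulk RNA sequencing of disc tissue from 16 mice, with 4 coccygeal discs of the tail pooled per mouse after being cut from the cartilaginous endplate. Wild-type mice gave 3 intact and 4 injured libraries, and Adam8EQ mutant mice gave 4 intact and 5 injured libraries. Adam8 encodes a membrane-anchored metalloprotease, its EQ allele is not described in the labels, and the series title names DBA, an inbred strain, as the comparison. Neither the age of the mice nor the kind or time of the injury is given in the labels used here. The names of the mutant libraries begin with A8 (intact mice 1 and 2, injured mice 1 and 2) or with M (intact mice 3 and 4, injured mice 3, 4 and 5), and the labels do not say what this marks. All wild-type names begin with D, so this naming and genotype cannot be told apart. All groups are separate mice, so each comparison is between animals.

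A skeletal muscle fibre is packed with sarcomeres, in which thick filaments of myosin slide along thin filaments of actin between Z-discs when calcium released from the sarcoplasmic reticulum binds troponin. Fast and slow fibres build the same machine from different members of the same gene families, so that the ratio of fast to slow isoforms is a common readout of fibre type. A disc is bordered by endplate, ligament and tail tendon, and the tail also carries skeletal muscle along the vertebrae.

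The start regions of 5 of these genes are given first because the text returns to them: the neighbouring fast myosin genes Myh2, Myh1 and Myh4, which lie on one chromosome but differed widely in level, Acta1, the most abundant gene of the list, and Des, the single gene that passed the test between intact and injured mutants. Each runs 5′ to 3′ on the strand of its gene, from 250 bases before to 50 bases after the start, taken from RefSeq on GRCm38.p6. That build is of the reference strain, while the series title names DBA as the comparison, so the bases of these mice may differ. The regions are chr11:67170777-67171076 (plus strand) for Myh2, chr11:67199852-67200151 (plus strand) for Myh1, chr11:67237562-67237861 (plus strand) for Myh4, chr8:123894726-123895025 (minus strand) for Acta1 and chr1:75360042-75360341 (plus strand) for Des. Capitals mark TATAAA, the E-box CANNTG (where N is any base) bound by myogenic regulators, and the CArG box bound by serum response factor, each searched on both strands.
Myh2: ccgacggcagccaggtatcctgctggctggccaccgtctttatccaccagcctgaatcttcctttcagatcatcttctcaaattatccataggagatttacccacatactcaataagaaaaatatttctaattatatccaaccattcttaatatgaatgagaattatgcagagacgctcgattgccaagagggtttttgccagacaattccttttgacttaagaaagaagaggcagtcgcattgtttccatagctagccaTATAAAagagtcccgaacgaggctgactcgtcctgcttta
Myh1: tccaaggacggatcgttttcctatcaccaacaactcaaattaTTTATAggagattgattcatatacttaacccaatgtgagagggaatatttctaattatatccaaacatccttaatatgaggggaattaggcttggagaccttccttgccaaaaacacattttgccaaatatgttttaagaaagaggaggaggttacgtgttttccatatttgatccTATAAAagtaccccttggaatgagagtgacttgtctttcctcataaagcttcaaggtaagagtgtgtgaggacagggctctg
Myh4: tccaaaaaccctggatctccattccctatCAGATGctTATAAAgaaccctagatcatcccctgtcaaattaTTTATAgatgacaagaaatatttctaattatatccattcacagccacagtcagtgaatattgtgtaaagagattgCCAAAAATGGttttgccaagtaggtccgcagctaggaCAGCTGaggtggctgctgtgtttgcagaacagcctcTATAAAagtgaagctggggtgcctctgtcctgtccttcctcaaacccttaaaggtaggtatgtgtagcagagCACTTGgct
Acta1: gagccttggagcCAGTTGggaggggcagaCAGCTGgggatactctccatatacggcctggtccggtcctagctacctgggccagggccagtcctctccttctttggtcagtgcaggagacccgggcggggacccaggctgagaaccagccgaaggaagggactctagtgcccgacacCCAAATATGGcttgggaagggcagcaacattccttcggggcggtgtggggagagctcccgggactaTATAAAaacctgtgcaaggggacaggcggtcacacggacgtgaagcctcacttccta
Des: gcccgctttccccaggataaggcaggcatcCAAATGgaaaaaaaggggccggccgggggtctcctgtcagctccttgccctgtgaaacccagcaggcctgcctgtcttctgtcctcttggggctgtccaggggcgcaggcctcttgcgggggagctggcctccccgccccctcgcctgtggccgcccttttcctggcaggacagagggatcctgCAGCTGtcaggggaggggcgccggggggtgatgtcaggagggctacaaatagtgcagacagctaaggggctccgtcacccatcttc

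Of the 35 genes, 27 had a start region of this kind. The E-box was present in 23 of the 27, or 85.2%, and in 75.0% of all 27025 genes with such a region. TATAAA was found in 6 of them (Acta1, Myh1, Myh2, Myh4, Myl1 and Tnnt1), or 22.2%, against 15.7% of all genes. The CArG box was found in Acta1, Ldb3 and Myh4, or 11.1% against 1.81%, and the MEF2 site, named for a further muscle transcription factor, in Ttn alone, or 3.7% against 0.636%. These matches are descriptions of the letters in a 300-base window, and no binding was measured here.

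Expression was low and uneven between mice. All levels below are TPM values (transcript abundance scaled by gene length and by the library total). The 35 genes together took 0.00826% to 0.16% of all TPM in a library. Their summed level was 1600, 748 and 423 TPM in intact wild-type mice 1 to 3, and 472, 284, 222 and 330 TPM in injured wild-type mice 1 to 4. In mutants it was 325, 368, 334 and 359 TPM in intact mice 1 to 4, and 193, 82.6, 279, 1220 and 547 TPM in injured mice 1 to 5. The highest sum was 19.4 times the lowest. The 4 intact mutants were almost alike, with the highest sum 1.13 times the lowest, whereas the injured mutants spanned a 14.8-fold range, the intact wild-type mice a 3.78-fold range and the injured wild-type mice a 2.13-fold range.

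**Figure D1:**
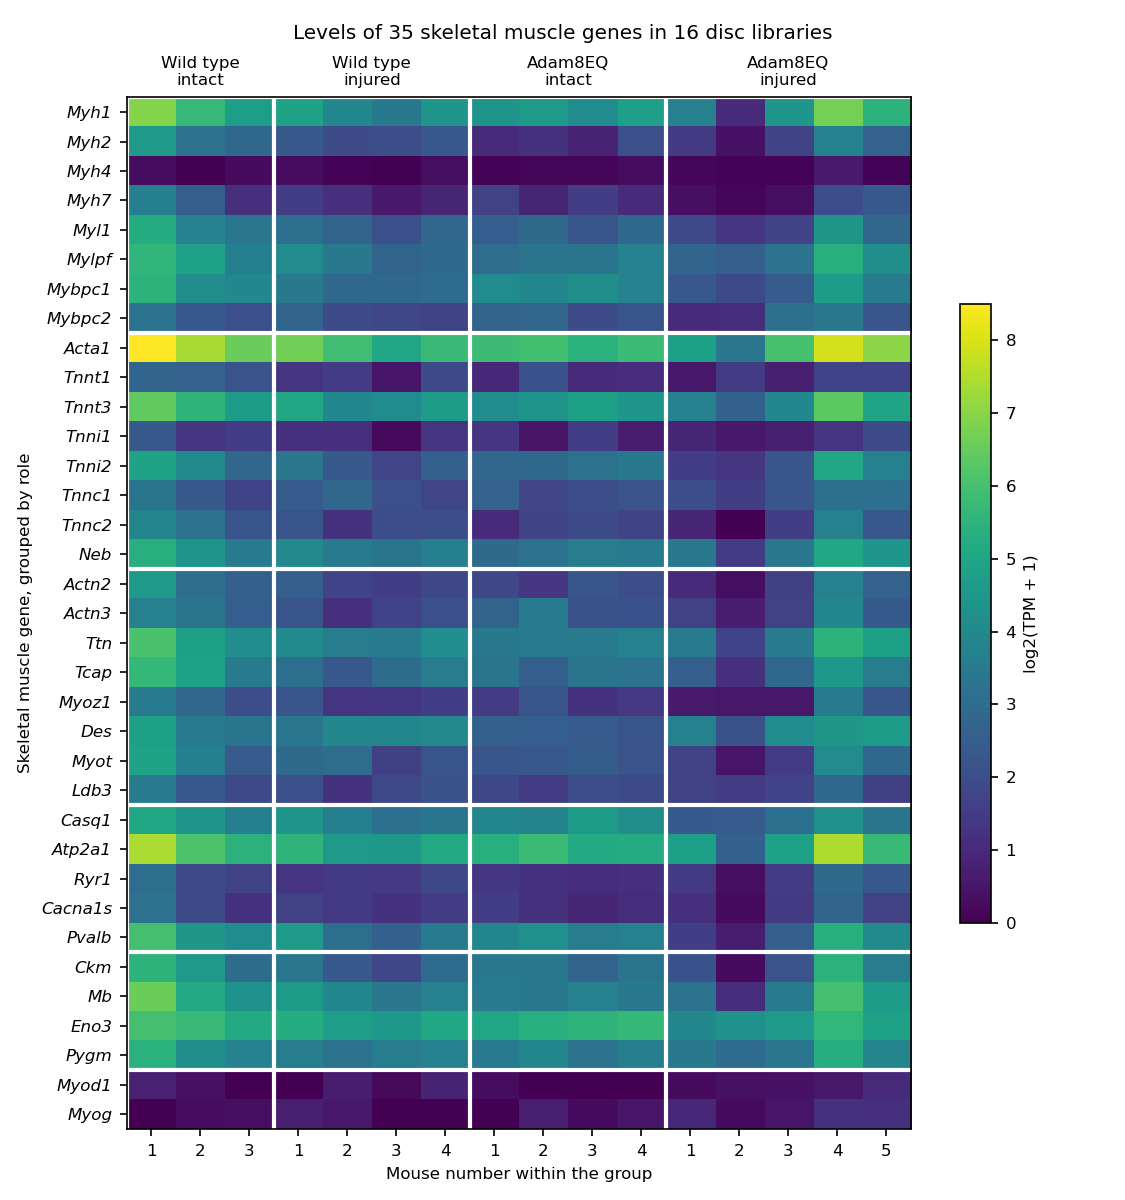
Heat map of log2(TPM + 1) of the 35 skeletal muscle genes (rows, grouped by role) in the 16 libraries (columns, by group and mouse number). The columns of intact wild-type mouse 1 (summed level 1600 TPM) and injured mutant mouse 4 (1220 TPM) are brightest and that of injured mutant mouse 2 (82.6 TPM) is darkest, across nearly all rows.

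Individual libraries set most of this range. Testing was limited to genes with 1 TPM or more in 3 or more libraries, which 32 of the 35 met. Of these 32, intact wild-type mouse 1 was highest for 27 and among the top 2 for all 32. Injured mutant mouse 4 held the other 5 highest values and was among the top 2 for 25 genes. Injured mutant mouse 2 was lowest for 26 genes. These 3 libraries stood apart, and the median over the genes in each comparison, the spread and the correlations are therefore also given without those of them that enter. The 3 were picked by the levels of these same genes, so leaving them out narrows the spread of the genes. Calls made without them are therefore no separate support. In bulk tissue, a smaller amount of a cell type and less RNA per cell cannot be told apart.

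The libraries held about 10194967 to 24828394 reads each, as implied by the spacing of low TPM values, and between 20085 and 21919 genes reached 1 TPM. The tissue label was checked with a fixed list of 8 disc cartilage genes, of which 7 were found, with a summed level of 5100 to 32800 TPM. Genes such as Chad (1010 to 18400 TPM) and Acan (2430 to 7020 TPM) carried this sum. Matn3 and Col9a1 were low, at 0.417 to 5.73 and 0.58 to 12.6 TPM. The precision of the muscle genes varied with their length and level: the implied reads were 897 to 22622 per library for Ttn, 48 to 1639 for Acta1, 3 to 38 for Tnnt1 and 0 to 32 for Tnnc2. The 3 genes that were not tested rested on few reads, 43 in all libraries together for Myh4, 31 for Myod1 and 37 for Myog.

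Acta1, which encodes the actin of the skeletal muscle thin filament, was the most abundant of the 35 genes, with a mean over all libraries of 96.7 TPM. It was followed by Atp2a1, the calcium pump of the fast fibre sarcoplasmic reticulum (54.0 TPM), Eno3, the muscle enolase of glycolysis (35.6 TPM), Myh1, the fast myosin heavy chain of type IIx fibres (34.1 TPM), Tnnt3, the fast troponin T (29.5 TPM), Mb, the oxygen-binding myoglobin (22.4 TPM), and Ttn, the giant elastic protein titin (18.8 TPM). From Acta1 down to Ttn, the ranges over the libraries of neighbouring genes in this order overlapped. The order by mean did not hold in every library. Eno3 lay above Acta1 in intact mutant mouse 3 (45.2 against 41.9 TPM) and in injured mutant mouse 2 (18.8 against 9.19 TPM). At the other end, Myod1 and Myog, transcription factors that commit and differentiate muscle precursors, reached at most 1.01 and 1.39 TPM, and Myh4, the myosin of the fastest type IIb fibres, at most 0.544 TPM.

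Among thick filament genes, Myh1 ran at 122, 51.1 and 25.8 TPM in intact wild-type mice and at 29.0, 14.5, 9.96 and 20.7 TPM in injured wild-type mice. In mutants it ran at 20.0, 24.0, 16.7 and 26.7 TPM in intact discs and at 12.1, 1.02, 20.8, 106 and 44.3 TPM in injured discs. The wild-type groups overlapped through injured mouse 1, and the injured mutants lay both below and above the intact mutants. Myh2, the myosin of type IIa fibres, was at 23.2, 8.32 and 6.2 TPM in intact and 4.17, 2.96, 3.04 and 3.92 TPM in injured wild-type mice. It was at 1.02, 1.37, 0.787 and 3.26 TPM in intact and 1.74, 0.33, 2.36, 12.3 and 5.36 TPM in injured mutants. Thus every intact wild-type value of Myh2 lay above every injured wild-type and every intact mutant value, while the 2 mutant groups overlapped. Myh7, the slow myosin heavy chain, was at 11.7, 4.98 and 1.22 TPM in intact wild-type mice and between 0.103 and 4.16 TPM in all others, with all pairs of groups overlapping.

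Both fast light chains were highest in intact wild-type mouse 1. Mylpf, the fast regulatory light chain, was at 47.6, 28.4 and 11.7 TPM in intact wild-type mice, at 5.67 to 16.3 TPM in injured wild-type mice, at 7.24 to 12.8 TPM in intact mutants and at 4.99 to 39.8 TPM in injured mutants. Myl1, the fast essential light chain, was between 1.56 and 37.5 TPM over all libraries. Mybpc1, the slow form of myosin-binding protein C, was at 44.5, 17.6 and 14.6 TPM in intact and 9.76, 6.38, 6.39 and 6.91 TPM in injured wild-type mice. It was at 16.6, 14.7, 18.0 and 12.8 TPM in intact mutants and at 4.0, 2.79, 4.6, 25.2 and 10.7 TPM in injured mutants. Mybpc1 thus did not overlap between intact and injured wild-type discs, and in the mutants injured mouse 4 alone lay above the intact values. Mybpc2, the fast form, was between 1.05 and 9.48 TPM.

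Of the thin filament, Acta1 was at 362, 168 and 92.9 TPM in intact and 99.0, 57.9, 30.8 and 51.7 TPM in injured wild-type mice. It was at 56.4, 59.4, 41.9 and 54.9 TPM in intact and 27.1, 9.19, 63.8, 244 and 129 TPM in injured mutants. The intact mutants lay below all intact wild-type mice, and the injured mutants spread on both sides of them. Tnnt3 was at 84.3, 45.7 and 24.3 TPM in intact wild-type mice, 33.4, 14.7, 16.6 and 24.4 TPM in injured wild-type mice, 16.4 to 27.3 TPM in intact mutants and 5.2 to 81.4 TPM in injured mutants. Tnnt1, the slow troponin T, was at 5.85, 5.42 and 3.52 TPM in intact and 1.45, 1.85, 0.41 and 2.92 TPM in injured wild-type mice. It was at 0.918, 3.42, 1.07 and 1.12 TPM in intact mutants and at 0.47, 1.87, 0.694, 2.29 and 2.28 TPM in injured mutants. The intact wild-type group alone stood clear of the other 3 groups for Tnnt1.

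Troponin I, the inhibitory subunit, was represented by the fast Tnni2 at 1.57 to 33.2 TPM and the slow Tnni1 at 0.167 to 4.15 TPM. Troponin C, the calcium-binding subunit, was represented by the fast Tnnc2 at 13.6, 8.25 and 3.88 TPM in intact wild-type mice, against 1.39 to 3.6 TPM in injured wild-type mice and 1.01 to 2.96 TPM in intact mutants. Tnnc2 was listed at 0 in injured mutant mouse 2 and reached 11.9 TPM in mouse 4. The slow Tnnc1, which is also used by heart muscle, lay between 1.98 and 8.81 TPM. Neb, the ruler protein nebulin of the thin filament, lay between 1.88 and 40.5 TPM.

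Des, which encodes the intermediate filament desmin that ties Z-discs together and is also made by smooth muscle, had a pattern of its own. It was at 27.4, 10.5 and 8.89 TPM in intact and 9.04, 14.4, 13.8 and 15.1 TPM in injured wild-type mice. It was at 5.06, 4.86, 4.41 and 3.63 TPM in intact and 12.0, 3.29, 16.6, 21.6 and 25.0 TPM in injured mutants. All intact mutants lay below all wild-type mice, and 4 of the 5 injured mutants lay above all intact mutants, the exception being mouse 2. Of the other scaffold genes, Ttn was at 65.7, 27.6 and 17.1 TPM in intact wild-type mice, 10.4 to 16.9 TPM in injured wild-type mice, 9.73 to 12.1 TPM in intact mutants and 2.26 to 44.6 TPM in injured mutants. The Z-disc actinins Actn2 and Actn3 (the latter found in fast fibres) ranged from 0.239 to 22.7 and from 0.61 to 14.5 TPM. Tcap, which caps titin at the Z-disc, ranged from 1.24 to 50.1 TPM, and the Z-disc proteins Myoz1, Myot and Ldb3 ranged from 0.455 to 10.6, from 0.4 to 28.6 and from 1.35 to 10.7 TPM.

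Among calcium-handling genes, Atp2a1 was at 170, 69.0 and 42.9 TPM in intact and 45.0, 22.7, 22.4 and 34.8 TPM in injured wild-type mice. It was at 39.9, 54.3, 36.0 and 37.0 TPM in intact and 26.7, 5.25, 28.4, 176 and 52.2 TPM in injured mutants. Each pair of groups overlapped, and injured mutant mouse 4 held the highest value of all. Casq1, the calcium store protein of fast fibres, was at 14.3, 12.9, 23.6 and 17.2 TPM in intact mutants and at 4.25, 4.37, 7.53, 18.1 and 8.84 TPM in injured mutants, overlapping through mouse 4. Pvalb, the calcium buffer parvalbumin of fast fibres, ranged from 0.565 to 62.6 TPM. The calcium release channel Ryr1 and the voltage sensor subunit Cacna1s ranged from 0.283 to 7.4 and from 0.18 to 7.93 TPM.

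Of the metabolic genes, Ckm, the muscle creatine kinase, was at 44.5, 22.9 and 7.06 TPM in intact and 9.23, 4.19, 2.48 and 6.81 TPM in injured wild-type mice. In mutants Ckm was at 5.58 to 9.93 TPM in intact discs and at 3.38, 0.202, 3.57, 43.2 and 11.3 TPM in injured discs, the widest relative range among the metabolic genes. Mb ranged from 1.17 to 94.6 TPM, and Pygm, the muscle glycogen phosphorylase, from 6.86 to 42.4 TPM. Eno3 had the smallest spread within groups of the 32 tested genes. It was at 30.7, 39.8, 45.2 and 50.2 TPM in intact and 14.8, 18.8, 22.7, 49.1 and 28.3 TPM in injured mutants, and at 22.3 to 62.5 TPM in wild-type mice. For Eno3, 4 of the 5 injured mutants lay below all intact mutants.

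**Figure D2:**
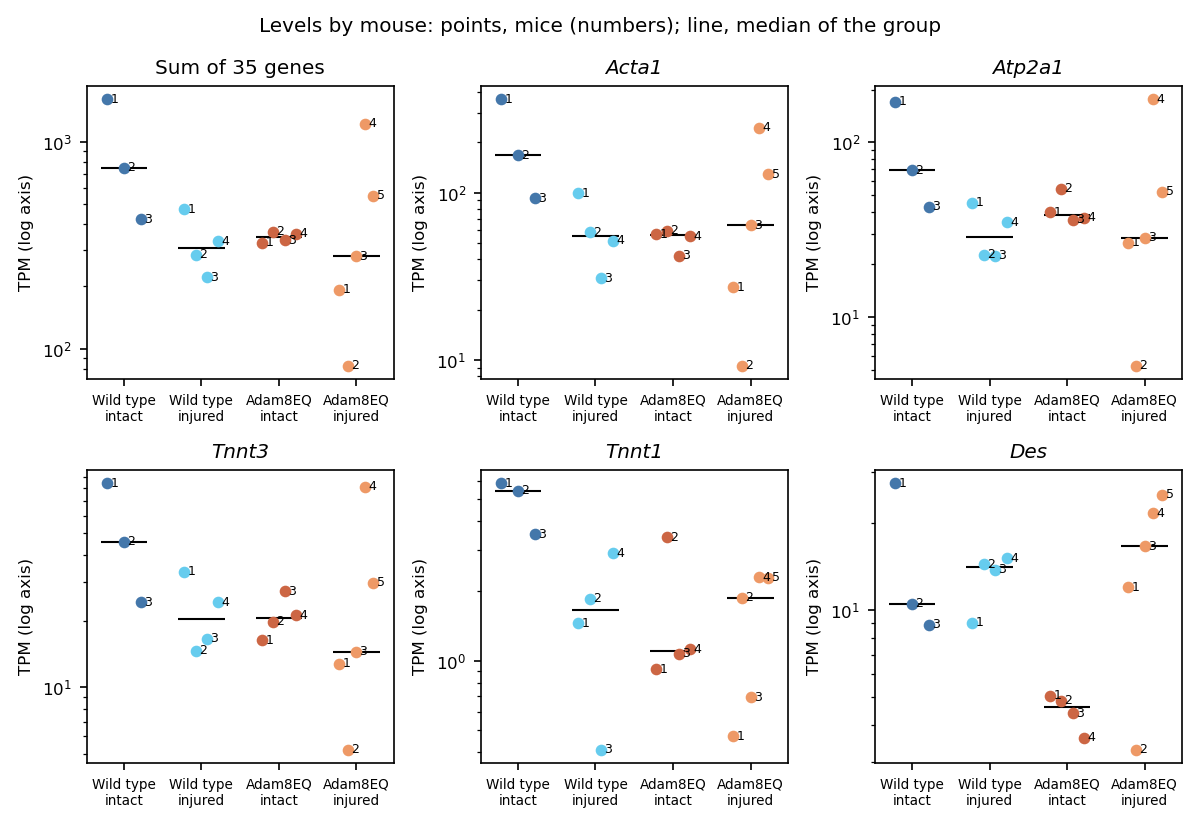
TPM (log axes) by group for the sum of the 35 genes and for Acta1, Atp2a1, Tnnt3, Tnnt1 and Des, with 1 numbered point per mouse and a line at the median of the group. Injured mutants span the widest range in the sum (82.6 to 1220 TPM), and for Des 4 of the 5 injured mutants lie above all intact mutants.

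In wild-type mice the question was whether injury changed these transcripts. All 32 tested genes had a lower mean in injured than in intact discs, and none of them passed the test. The difference of mean log2(TPM + 1), injured minus intact, had a median of -1.24 over the 32 genes and of 0.00905 over all 24188 tested genes. It was largest for Ckm at -1.74 ± 0.98 (standard error, 3 against 4 mice; limma adjusted p = 0.328), the muscle creatine kinase described above, and smallest for Des at -0.09 ± 0.54 (limma adjusted p = 0.943). By group of genes, the medians were -1.42 for the 7 thick filament genes, -1.15 for the 8 thin filament genes, -1.20 for the 8 scaffold genes, -0.77 for the 5 calcium-handling genes and -1.20 for the 4 metabolic genes.

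The limma test with Benjamini-Hochberg adjustment over all tested genes called 0 of the 32 genes at an adjusted p under 0.05, and 0.116% of all tested genes. At an unadjusted p under 0.05 it counted 10 of the 32 genes, or 31.2%, and 17.2% of all tested genes. The 2 groups did not overlap for 10 of the 32 genes, against 15.6% of all tested genes. These 10 genes were Actn2, Actn3, Mybpc1, Myh2, Myl1, Pygm, Tnnc2, Tnni1, Tnnt1 and Ttn, named after their values were seen. The smallest adjusted p among genes named by rule was that of Tnnt1, with a difference of -1.23 ± 0.41 (limma adjusted p = 0.177). Acta1 differed by -1.68 ± 0.90 (limma adjusted p = 0.303), Tnnt3 by -1.07 ± 0.71 (limma adjusted p = 0.397) and Ttn by -1.20 ± 0.72 (limma adjusted p = 0.355). The median over the 32 genes was -0.83 without intact wild-type mouse 1, the one library of this comparison that stood apart. limma's voom on implied reads also called 0 of the 32 genes.

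In mutants the same comparison gave no common direction over the genes. The mean was higher in injured than in intact discs for 15 of the 32 genes and lower for 17, with a median difference of -0.07 against -0.08 over all tested genes. Des rose in injured mutants, by 1.38 ± 0.48 on the log2(TPM + 1) scale (standard error, 4 against 5 mice; limma adjusted p = 0.0277), although the groups overlapped through injured mouse 2. Des was the single gene of the 32 that limma called, or 1 of 32, while 30.8% of all tested genes were called in this comparison. At an unadjusted p under 0.05 the test counted 4 of the 32 genes, or 12.5%, against 42% of all tested genes, and 0 of the 32 genes had groups that did not overlap, against 27.2% of all tested genes.

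The unadjusted 4 were Des and 3 genes with lower means in injured mutants. These were Casq1 at -1.04 ± 0.42 (limma adjusted p = 0.0558), Eno3 at -0.71 ± 0.31 (limma adjusted p = 0.0688) and Mybpc1 at -1.04 ± 0.51 (limma adjusted p = 0.102), which were named after their values were seen. The abundant genes had differences near 0 with wide errors: Acta1 differed by 0.08 ± 0.79 (limma adjusted p = 0.944), Tnnt3 by -0.11 ± 0.63 (limma adjusted p = 0.901), Tnnt1 by -0.05 ± 0.36 (limma adjusted p = 0.927) and Ttn by 0.27 ± 0.63 (limma adjusted p = 0.753). The 95% interval of the Acta1 difference ran from -1.64 to 1.80, which holds sizeable changes in either direction. Without the 3 libraries that stood apart, limma called Des at 1.73 (limma adjusted p = 0.00112). Casq1, Mybpc1 and Eno3 were then called lower, at -1.21, -1.25 and -0.91, and the median over the 32 genes was -0.13. Those libraries were picked by the genes' own levels and include injured mouse 2, through which Des overlapped. The calls without them are therefore no separate support. voom on implied reads called the same 4 genes in the same directions, Des at an adjusted p of 0.0487.

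The call for Des was lost in a fit of only the 2 mutant groups (limma adjusted p = 0.0513). It was also lost without injured mutant mouse 3, 4 or 5 and without intact mutant mouse 2, 3 or 4. Without injured mutant mouse 4, Casq1, Mybpc1 and Eno3 were called lower, at -1.33, -1.47 and -0.96, and Casq1 was also called lower without intact wild-type mouse 3 or injured wild-type mouse 1, at -1.04. The median over the 32 genes, close to 0 with all mice, was 0.30 without injured mutant mouse 2 and -0.47 without injured mutant mouse 4, and between -0.23 and 0.11 without any 1 of the other 3 injured mutants. Des is also a smooth muscle gene, and a fixed list of 7 smooth muscle genes had a summed level of 157 to 205 TPM in intact mutants and of 216 to 499 TPM in injured mutants. Smtn alone was at 46.8 to 96.3 TPM in intact and 119 to 467 TPM in injured mutants. The median difference of the 7 was 0.03, with 4 above and 3 below 0. Of these 7, 1 was called higher in injured mutants and 1 lower, where 30.8% of all tested genes were called: Smtn, which encodes the actin-binding smoothelin, rose by 1.89 ± 0.39 (limma adjusted p = 0.00192), and Myh11, the smooth muscle myosin heavy chain, fell by 1.90 ± 0.35 (limma adjusted p = 0.00125). Their part in the Des result was not tested.

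Within mutants, the 2 kinds of library names differed in direction. Among the mice named A8, 31 of the 32 genes had a lower mean in injured discs, with a median difference of -1.04, and among those named M, 29 of the 32 had a higher mean, with a median of 0.68. In a limma fit with injury and naming together, 5 genes fell in the A8 mice: Pvalb by 2.97 ± 0.92, Mybpc1 by 1.93 ± 0.65, Actn3 by 1.93 ± 0.69, Mybpc2 by 1.69 ± 0.47 and Eno3 by 1.03 ± 0.37. Their limma adjusted p-values were 0.0257, 0.0368, 0.0494, 0.0231 and 0.049, and 21.2% of all tested genes were called in the A8 mice. In the M mice Des alone was called, rising by 2.12 ± 0.51 (limma adjusted p = 0.0312), where 4.47% of all tested genes were called, while in the A8 mice it differed by 0.33 ± 0.56 (limma adjusted p = 0.687). This comparison rests on 2 intact and 2 injured A8 mice and on 2 intact and 3 injured M mice, and injured mice 2 and 4, which stood apart, belong 1 to each kind. Without the libraries that stood apart, which leaves 1 injured A8 mouse assumed to vary like the other groups, the median was -0.58 in A8 mice (27 of 32 lower) and 0.08 in M mice (19 of 32 higher). limma then called Mybpc1 lower in A8 mice and Des higher in M mice.

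The difference between the 2 kinds of mutants was itself above 0 for all 32 genes, with a median of 1.55 against -0.04 over all tested genes. limma called 0 of the 32 genes and 0% of all tested genes for this difference. At an unadjusted p under 0.05 it counted 8 of the 32 genes and 6.3% of all tested genes. Without the libraries that stood apart the median was 0.68, above 0 for 31 of the 32 genes, with 0 of the 32 called. Acta1 had a difference of 3.18 ± 1.07 (limma adjusted p = 0.642) between the kinds, from -1.80 ± 0.79 in A8 mice to 1.38 ± 0.72 in M mice, neither of which passed the test. The pooled mutant values above therefore average over 2 kinds of mice whose mean differences, with all mice included, had opposite signs for most of the genes.

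**Figure D3:**
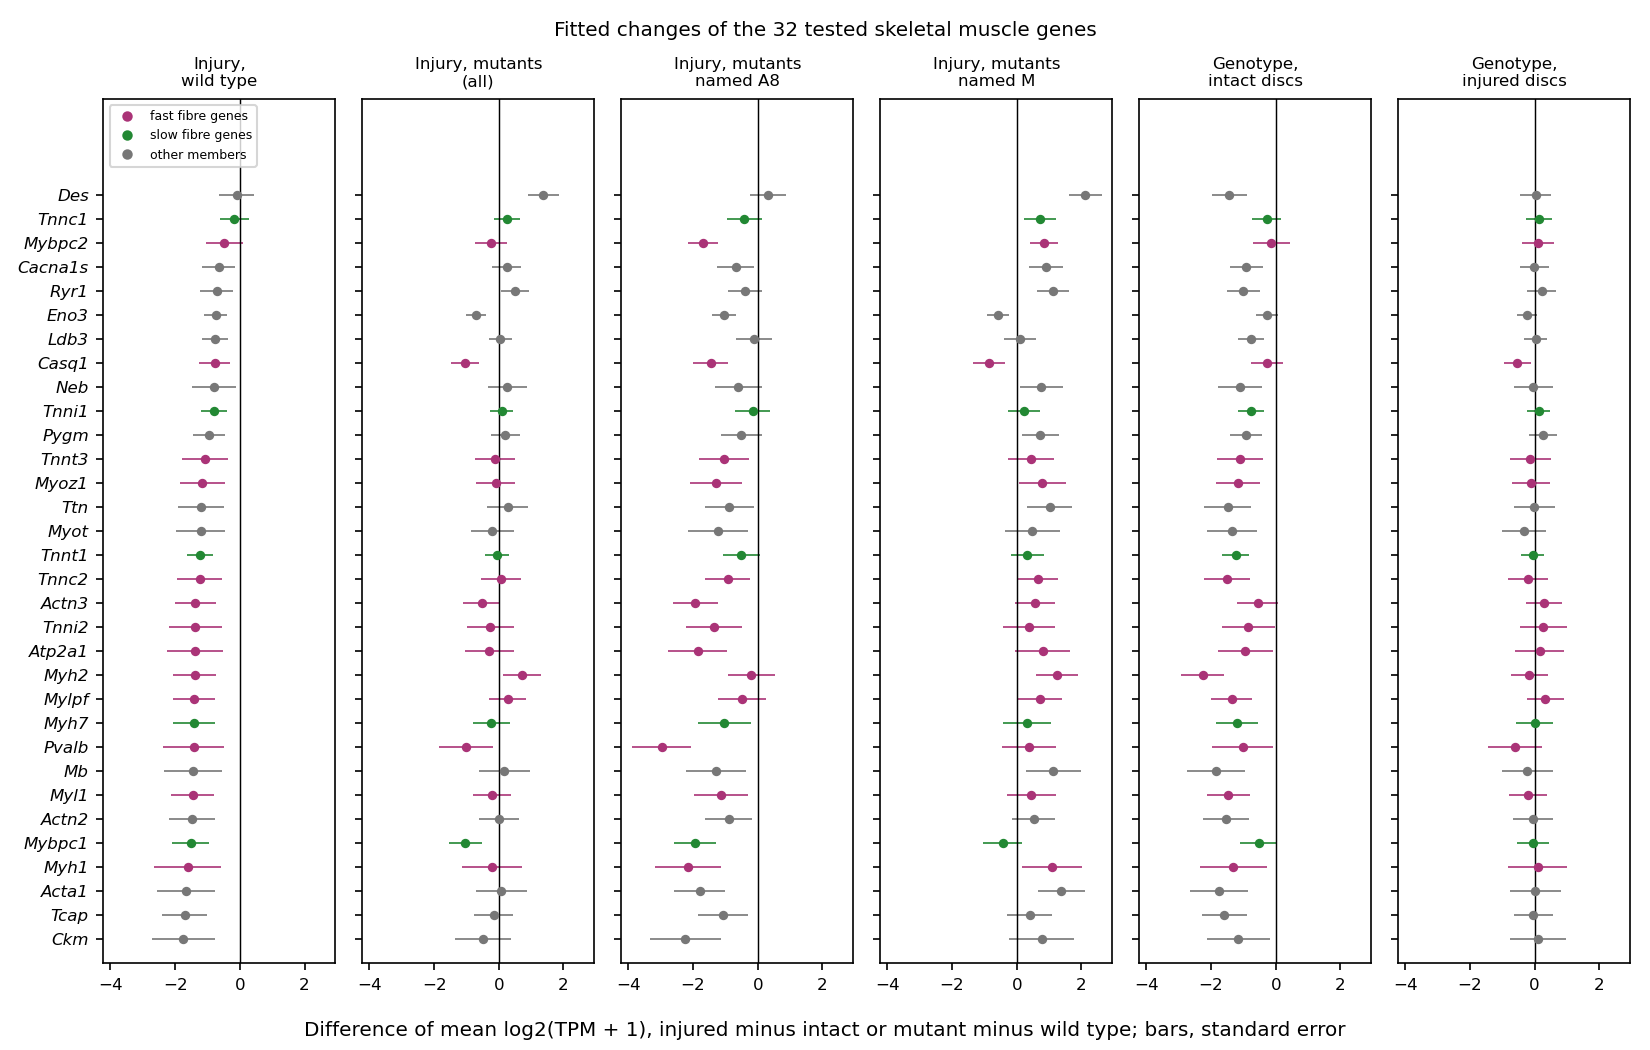
Fitted differences of mean log2(TPM + 1) with standard errors (x axis) for the 32 tested genes (rows, ordered by the wild-type injury difference), in 6 panels for injury in wild-type mice, in all mutants and in mutants named A8 or M, and for genotype in intact and injured discs. All 32 points lie below 0 for injury in wild-type mice and for genotype in intact discs, and 31 of 32 below 0 in A8 mice against 29 of 32 above 0 in M mice.

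In intact discs the mutants had lower means than the wild-type mice for all 32 tested genes, and none passed the test. The difference, mutant minus wild type, had a median of -1.13 over the 32 genes against -0.01 over all tested genes. This comparison uses the same 3 intact wild-type mice as the wild-type injury comparison, so their levels enter both. limma called 0 of the 32 genes, and 0.0165% of all tested genes. At an unadjusted p under 0.05 it counted 11 of the 32 genes, or 34.4%, against 3.78% of all tested genes, and the groups did not overlap for 11 of the 32, against 6.18% of all tested genes. Since the 32 genes varied together from library to library (correlations are given further on), these counts are not counts of separate events.

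The largest difference between genotypes in intact discs was that of Myh2, at -2.26 ± 0.66, followed by Mb at -1.86 ± 0.89 and Acta1 at -1.74 ± 0.90, each with a limma adjusted p of 1. Des differed by -1.43 ± 0.54, Tnnt1 by -1.24 ± 0.41, Ttn by -1.49 ± 0.72 and Tnnc2 by -1.50 ± 0.70, again with limma adjusted p-values of 1. At the other end, Mybpc2 differed by -0.13 ± 0.57, and Eno3, Casq1 and Tnnc1 by -0.27 ± 0.35, -0.27 ± 0.48 and -0.28 ± 0.45, all with limma adjusted p-values of 1. The median was -0.60 without intact wild-type mouse 1, the one library of this comparison that stood apart, -1.05 with the A8 mutants alone and -1.18 with the M mutants alone. voom on implied reads called 0 of the 32 genes.

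In injured discs no member differed between genotypes beyond the test's threshold. The mutant mean was higher for 14 of the 32 genes and lower for 18, with a median difference of -0.02 against -0.09 over all tested genes. limma called 0 of the 32 genes and 0.918% of all tested genes, and at an unadjusted p under 0.05 it counted 0 of the 32 genes and 20.3% of all tested genes. Acta1 differed by 0.02 ± 0.79 (95% interval -1.70 to 1.73; limma adjusted p = 0.993) and Des by 0.04 ± 0.48 (95% interval -1.0 to 1.07; limma adjusted p = 0.975). The median stayed at -0.02 without both injured mutant mice that stood apart, and was 0.34 without mouse 2 alone, -0.44 without mouse 4 alone and between -0.21 and 0.11 without any 1 other mouse. With the A8 mutants alone it was -1.06, and with the M mutants alone it was 0.64. voom called 0 of the 32 genes here too.

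The interaction of injury with genotype, the mutant injury difference minus that of wild type, was above 0 for 31 of the 32 genes and below 0 for Casq1. Its median was 1.14 against -0.08 over all tested genes. limma called 0 of the 32 genes and 0% of all tested genes, and at an unadjusted p under 0.05 it counted 4 of the 32 genes and 8.18% of all tested genes. The 4 were Myh2 at 2.10 ± 0.88, Mylpf at 1.69 ± 0.86, Des at 1.47 ± 0.72 and Tnnt1 at 1.18 ± 0.55, with limma adjusted p-values of 0.542, 0.609, 0.592 and 0.599. The median was 0.65 without intact wild-type mouse 1, 0.71 without injured mutant mouse 4 and 0.57 without the 3 libraries that stood apart. With the A8 mutants alone it was 0.10, and with the M mutants alone 1.82. voom called 0 of the 32 genes.

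The errors of these differences were wide because mice of one group differed. The standard error of a difference had a median of 0.67 over the 32 genes in wild-type injury and of 0.27 over all tested genes. The standard deviation of log2(TPM + 1) within groups, pooled over the 4 groups, had a median of 0.88 over the 32 genes and of 0.36 over all tested genes, and all 32 genes lay above the latter. It was largest for Myh1 at 1.37, higher than in 97.6% of all tested genes, and smallest for Eno3 at 0.46, higher than in 63.4%. By group, the median was 0.94 in intact wild-type, 0.46 in injured wild-type, 0.31 in intact mutant and 1.26 in injured mutant discs, against 0.23, 0.35, 0.25 and 0.34 over all tested genes. Taken as a difference, the excess was thus largest in injured mutants and smallest in intact mutants. Taken as a ratio, it was largest in intact wild-type discs. Without the 3 libraries that stood apart, the median was 0.52 over the 32 genes and 0.34 over all tested genes, with 27 of the 32 above the latter, and by group it was 0.50, 0.46, 0.31 and 0.65 in the same order. With all mice the 13 fast genes ran from 0.63 for Casq1 to 1.37 for Myh1 and the 5 slow genes from 0.53 for Tnni1 to 0.85 for Myh7, so the lists overlapped, and their difference was not tested.

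**Figure D4:**
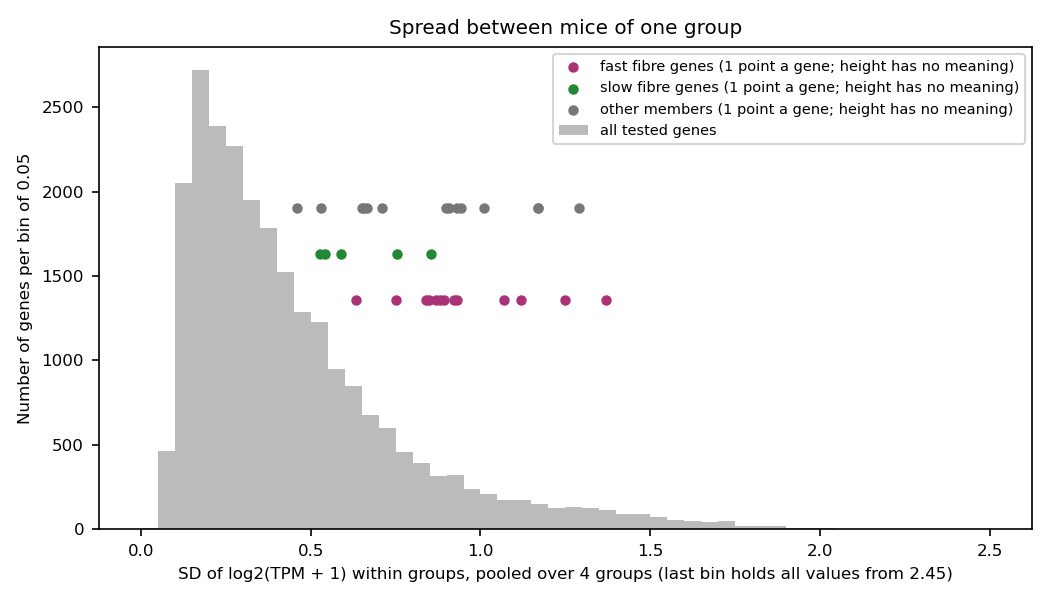
Histogram of the standard deviation of log2(TPM + 1) within groups (x axis) over all 24188 tested genes (grey bars, number of genes per bin), with 1 point for each of the 32 tested skeletal muscle genes in 3 rows by fibre type. The points run from 0.46 to 1.37, all to the right of the median of all tested genes at 0.36.

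The genes moved together from library to library. Pearson's correlation of log2(TPM + 1) with the mean of the other tested members, over 16 libraries, was highest for Tnnt3 at 0.975, Mb at 0.973, Acta1 and Actn2 at 0.972 and Ckm at 0.967. It was lowest for Des at 0.55, Tnnt1 at 0.613, Tnni1 at 0.686, Tnnc1 at 0.707 and Mybpc2 at 0.715. Without the 3 libraries that stood apart, the median over the 32 genes was 0.794 over 13 libraries, with the highest value at 0.925 for Acta1 and the lowest at -0.0337 for Des. These correlations describe 16 libraries that fall into 4 groups and share their totals, and no p-value is attached to them. Among all other tested genes, the 10 most like the mean of the members were Cmya5 and Trdn at 0.945, Klhl31 at 0.937, Nrap at 0.936, Myom3 at 0.915, Eef1a2 at 0.912, Scn4a at 0.905, Srl at 0.903 and Asb2 and Tmem38a at 0.887. Trdn encodes triadin, which sits beside the calcium release channel, Myom3 an M-band protein and Scn4a the sodium channel of the muscle fibre membrane.

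The relative amounts of fast and slow isoforms were compared within gene families. Of the summed TPM of Myh1, Myh2, Myh4 and Myh7, Myh1 made up 67.9% to 91.2%, Myh2 4.03% to 22.5%, Myh7 1.06% to 9.7% and Myh4 at most 3.26%. Myh1, Myh2 and Myh4 lie within one cluster, with gaps of 2534 bases between Myh1 and Myh2 and of 13453 bases between Myh1 and Myh4, and their coding sequences are very similar, so reads could have been split between them by the counting used. All 3 have TATAAA in the start regions printed above, and Myh4, the lowest, also has the E-box and the CArG box, which Myh1 and Myh2 lack in these windows. The share of Myh1 was 77.2% to 79.3% in intact wild-type mice and 85.6% to 91.2% in intact mutants, and that of Myh2 was 12.9% to 18.5% against 4.03% to 10.5%, with no overlap for either. As parts of one total, the 2 shares are not separate results. Few reads stand behind Myh2 in intact mutants, about 18, 31, 19 and 75 in mice 1 to 4. In injured discs both shares overlapped between genotypes, at 73.8% to 82.1% against 67.9% to 88.7% for Myh1 and 11.8% to 22.5% against 9.95% to 22.0% for Myh2.

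The fast form made up most of troponin T and troponin I in every library. Tnnt3 took 73.6% to 97.6% of Tnnt3 and Tnnt1 together, and Tnni2 took 69.4% to 95.9% of Tnni2 and Tnni1. Troponin C differed, since Tnnc2 took 60.7%, 66.1% and 63.4% of Tnnc2 and Tnnc1 in intact wild-type mice and 43.8%, 18.7%, 48.6% and 56.5% in injured wild-type mice. In mutants its share was 15.7%, 49.4%, 48.6% and 39.4% in intact discs and 21.5%, 0%, 33.4%, 60.7% and 34.2% in injured discs. The intact wild-type shares lay above all others but that of injured mutant mouse 4, which equalled the lowest of them at this rounding. Few reads stand behind these values, at most 32 for Tnnc2 and 27 for Tnnc1 in a library. For myosin-binding protein C the slow form prevailed in 15 of 16 libraries, the fast Mybpc2 taking 13.8% to 62.9% of the pair.

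Summed over the lists, the 14 fast genes reached 27.1 to 655 TPM and the 5 slow genes 7.23 to 74.9 TPM. Mybpc1 was the largest part of the slow sum in every library, so the slow share leans on this gene. It gave 44.5 of 74.9 TPM in intact wild-type mouse 1, 25.2 of 39.8 TPM in injured mutant mouse 4 and 2.79 of 7.23 TPM in injured mutant mouse 2. The slow share of both sums was 10.1% to 12.2% in intact wild-type, 8.5% to 14.2% in injured wild-type, 10.8% to 16.2% in intact mutant and 6.46% to 21.1% in injured mutant mice. In injured mutants without mice 2 and 4 it was 8.68% to 11.7%. The lowest slow share, 6.46%, was in injured mutant mouse 4 and the highest, 21.1%, in injured mutant mouse 2, the libraries with the highest and the lowest muscle sum of that group. The median differences of the 13 tested fast genes and the 5 slow genes were -1.38 and -1.23 for injury in wild-type mice, -0.21 and -0.05 for injury in mutants, and -1.09 and -0.76 for genotype in intact discs. Without intact wild-type mouse 1 the first pair was -0.87 and -0.82 and the last pair -0.65 and -0.46. The mutant pair lay close to 0 and changed sign with single mice, from -0.71 to 0.15 for the fast genes and from -0.17 to 0.12 for the slow genes. The difference between the lists was not tested.

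**Figure D5:**
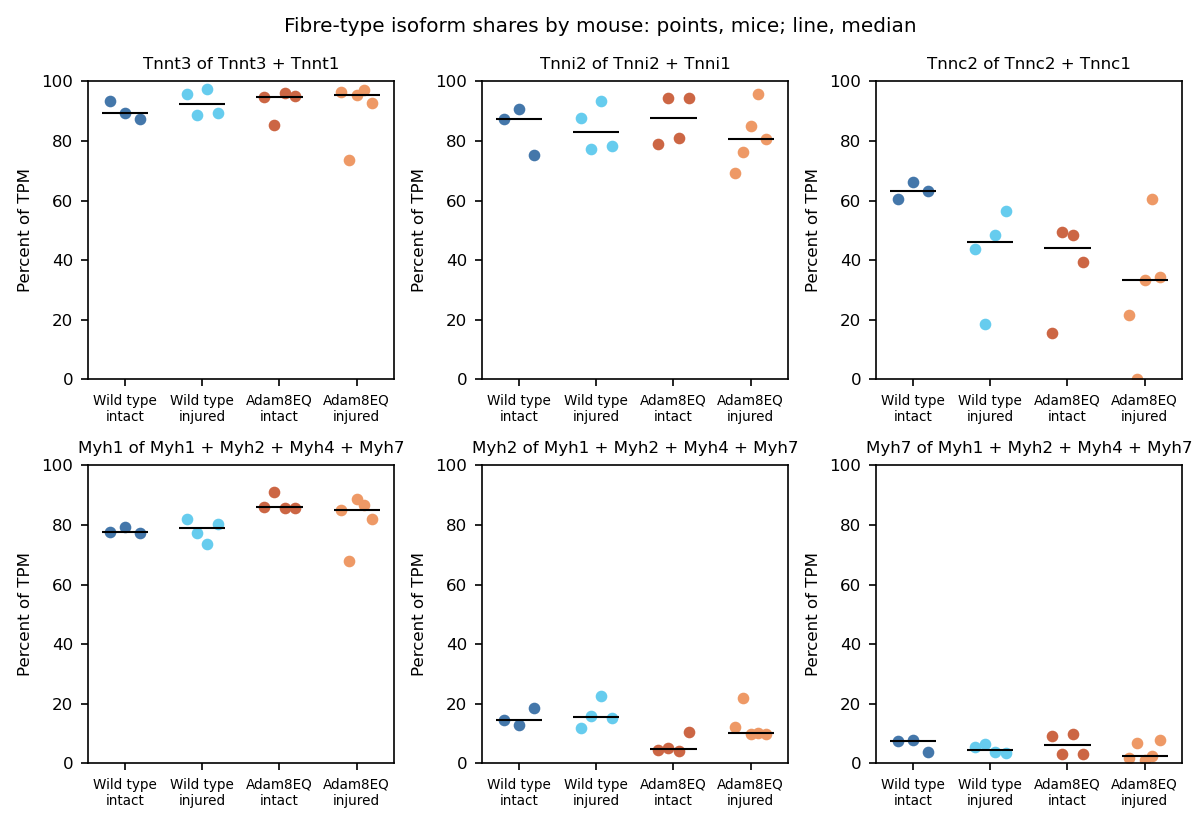
Percent of TPM (y axes, 0 to 100) taken by the fast troponin isoform of each pair and by 3 myosin heavy chains, by group, with 1 point per mouse and a line at the median. Fast troponin T and I lie above 69% in all 16 libraries, and the Myh1 share of intact mutants (85.6% to 91.2%) lies above that of intact wild-type mice (77.2% to 79.3%).

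Further muscle genes were counted in the same way. Of 51 further genes of fixed lists of muscle function, 47 were tested. In wild-type injury limma called 0 of the 47, with 8 (17%) at an unadjusted p under 0.05, against 17.2% of all tested genes, and a median of -0.50. In genotype of intact discs it called 0 of the 47, with 8 (17%) at an unadjusted p under 0.05, against 3.78% of all tested genes, and a median of -0.34. In mutant injury 5 of the 47 rose and 8 fell, where 30.8% of all tested genes were called, with a median of -0.01. The most abundant of these genes were Jph2, the junctophilin that couples membrane and calcium store, at 11.7 to 321 TPM, the tropomyosins Tpm1 at 53.5 to 93.6 TPM and Tpm2 at 25.6 to 123 TPM, and the small heat shock protein Hspb7 at 31.2 to 76.5 TPM. Jph2 fell by 1.99 ± 0.62 in injured mutants (limma adjusted p = 0.0163), with overlapping groups. It was lowest in injured mutant mice 1 and 3, at 11.7 and 27.4 TPM, and was at 91.2 TPM in mouse 2, whose muscle sum was lowest. T, a notochordal gene, was also lowest in mice 1 and 3, at 21.5 and 115 TPM. Of 4 tested notochordal genes, limma called 3 lower in mutant injury, where 30.8% of all tested genes were called. A link between Jph2 and these genes was not tested. Of 6 further slow fibre genes, limma called 0 in wild-type injury (3 at an unadjusted p under 0.05, against 17.2% of all tested genes). In mutant injury 2 of the 6 rose, where 30.8% of all tested genes were called: Atp2a2 by 0.77 ± 0.11 and Tpm3 by 0.79 ± 0.14, with limma adjusted p-values of 0.000731 and 0.00145. Atp2a2, a calcium pump used by slow fibres and by many other cells, was at 165 to 365 TPM in all libraries, and Tpm3 at 32.6 to 72.1 TPM. The list did not rise as a whole, since 4 of the 6 differences lay above 0 and 2 below. Myl3 was at 3.76 to 4.77 TPM in intact and 0.675 to 5.82 TPM in injured mutants. Myl2 was at 0.484 to 3.33 TPM in intact and 0.0885 to 2.73 TPM in injured mutants.

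Defining markers of muscle precursors and of heart were low. Pax7 and Myf5, which mark satellite cells, reached at most 0.0535 and 0.0828 TPM in any library, and the heart genes Actc1 and Tnnt2 at most 0.775 and 0.364 TPM. Of 9 satellite cell and myoblast genes, 2 passed the filter, and the sum of the list, 27.4 to 150 TPM, was nearly all Ncam1, an adhesion molecule of many cell types at 25.6 to 150 TPM, with Mymx, a peptide of myoblast fusion, and the regulator Myf6 at most at 2.61 and 1.36 TPM. Of 6 heart genes 1 passed the filter, and their sum was 3.44 to 8.72 TPM, most of it Nppa, the atrial natriuretic peptide, at 1.87 to 6.52 TPM. Of 8 neuromuscular junction genes 6 passed the filter, and their sum, 31.1 to 70.6 TPM, was mostly the receptor subunit Chrnb1 at 22.1 to 60.5 TPM, with the subunits Chrnd and Chrng at most at 0.477 and 0.602 TPM.

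Markers of other tissues in the 3 libraries that stood apart are given beside their muscle sums. Intact wild-type mouse 1 had 3 fat genes at a sum of 12.5 TPM (1.6 TPM or less in the other 2 intact wild-type mice) and 3 red cell genes at 716 TPM (256 and 369 TPM). Injured wild-type mouse 3, with a muscle sum of 222 TPM, had the highest sums of all 16 libraries for both, at 13.9 TPM and 1440 TPM. In intact wild-type mouse 1 the 5 tendon genes, at 2900 TPM, lay within the 2510 to 3240 TPM of that group, and the 7 smooth muscle genes, at 214 TPM, were the lowest of the group. Injured mutant mouse 4 had red cell genes at 1150 TPM (179 to 527 TPM in the other injured mutants). Its tendon genes, at 1610 TPM, had the highest sum of its group, whose lowest was 724 TPM in mouse 2. Most of this tendon sum was Fmod, at 1430 TPM in mouse 4 and 441 TPM in mouse 2. Mkx was also higher in mouse 4, at 73.4 against 60.0 TPM. Tnmd, Scx and Thbs4 were lower in mouse 4, at 2.2, 21.7 and 82.0 TPM, against 15.0, 22.5 and 185 TPM in mouse 2. Injured mutant mouse 2 had 2 leukocyte genes at 282 TPM (8.51 to 46.2 TPM in the others) and disc cartilage genes at 5100 TPM, the lowest of all 16 libraries. All 5 tendon genes were called in mutant injury, 4 lower and 1 higher, and both leukocyte genes were called higher, where 30.8% of all tested genes were called. The part of these tissues in the muscle values was not tested.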

How the data were processed

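Bulk RNA sequencing of disc tissue covered 16 mice, 1 library each. TPM values were deposited by the authors as 1 table keyed by Ensembl identifier and gene name. Per the submitters' processing notes, bcl2fastq 2.20 and the build GRCm38 were used. The aligner, counter, annotation and use of strand are not given in the sources used here. Per the labels' protocols, ribosomal RNA was depleted, while the molecule field reads polyA RNA. Groups and mouse numbers came from the titles, since the genotype field of wild-type libraries is cut short, and all 16 columns were used.

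The 35 members and all gene lists were chosen with earlier results of these data known. Levels are named for all members. Changes with errors are named for a fixed set (Acta1, Ckm, Mylpf, Myh7, the troponins, Atp2a1, Ttn and Des), for any member called, for other lists the most abundant, and for others where stated. Myh4, Myod1 and Myog did not pass the filter. Differences were fitted with limma 3.58.1 under R 4.3.3 (lmFit and trended eBayes) on log2(TPM + 1), 1 mean per group, over the 24188 genes that had 1 TPM or more in 3 or more libraries. The scale understates changes of low genes. The Benjamini-Hochberg adjustment covered all 24188 genes in each contrast, and an adjusted p under 0.05 was called. The fit leaves 12 residual degrees of freedom. Standard errors and 95% intervals use each gene's own spread, whereas the p-values use the spread that eBayes moderates over all tested genes. An unadjusted p under 0.05 can therefore go with an interval that includes 0, in any of the comparisons. Reads were implied from TPM steps and union exon lengths in GENCODE M21 (94.04% to 94.91% of low values within 0.05 of a whole read), and are approximate, so no counting intervals were made. Errors are between mice, and whether mice shared a litter is not given. Of 49315 identifiers, 99.5% were in that annotation. Figures were drawn with Python 3.11.15 and matplotlib 3.10.9.

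Alternatives were a pseudocount of 0.1, no filter, untrended eBayes, quantile normalization, median-of-ratios scaling, only the groups compared, a replicate block, mutants of 1 naming alone and leaving out each mouse. Chosen after seeing the data were leaving out the 3 libraries that stood apart, voom on implied reads and the fit of injury with naming. A self-test of the fit on simulated data was also run, and its result is not given here, so nothing above rests on it.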

Additional observations from a re-analysis of the deposited data

Results flagged for a closer look

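Each of the 32 tested genes was examined in the 3 groups of 4 or 5 mice for a single mouse far from the others, 96 groups in all. Of these, 4 were flagged by a gap to the nearest mouse that was large against the range of the group, or 4.17%, where chance flags about 5%. Tnnt1, the slow troponin T, stood high in intact mutant mouse 2, at 2.15 on the log2(TPM + 1) scale, or 3.42 TPM against 0.918 to 1.12 TPM in the other 3. Tnni1, the slow troponin I, stood low in injured wild-type mouse 3, at 0.223, or 0.167 TPM against 1.23 to 1.4 TPM. Tcap, the titin cap, stood low in intact mutant mouse 2, at 2.58, or 4.98 TPM against 8.5 to 8.96 TPM. Ldb3, a Z-disc protein, stood high in injured mutant mouse 4, at 2.85, or 6.23 TPM against 1.76 to 2.24 TPM in the other 4.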

How the results depend on the processing

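Under all alternatives run, the median over the members stayed below 0 for injury in wild-type mice and for genotype in intact discs, and no setting called a member in these comparisons, between genotypes in injured discs or for the interaction. In mutants the number of members called was 1, but 4 without the 3 libraries that stood apart, 4 with voom, 5 in A8 mutants alone, 0 with only the groups compared, 0 with the replicate block and 0 to 3 without single mice. Des, called in the main analysis at 1.38, was called in 18 of 27 alternatives (0.33 to 2.12). These include each setting without a wild-type mouse, which leaves the mutant difference at 1.38. Of the settings without a mutant mouse, the call held only without injured mouse 1, injured mouse 2 or intact mouse 1. The causes of these shifts were not tested. Depth limits the genes with few reads, such as Tnnc2 and Tnnt1.

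The replicate block, which treats equal mouse numbers as pairs, has no basis in the labels: in 21 pairs of same-numbered mice the deviations from group means correlated between -0.217 and 0.151, with 1 pair above 0.1. With the block, Des in mutant injury had a difference of 1.16 (limma adjusted p = 0.0787), and the genes called over the whole table numbered 5 for injury in wild-type mice, 2 and 11 for genotype in intact and injured discs. Acta1 then differed by -0.28 between genotypes in injured discs and by -0.22 in mutant injury, Des by -0.18 between genotypes in injured discs, and Tnnc2 and Tnni1 by -0.086 and -0.13 in mutant injury.

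The number of genes called over the whole table also moved. For injury in wild-type mice, 28 in the main analysis, it was 8 without the 3 libraries, 13 with untrended eBayes, 4 with voom, 10 with median-of-ratios scaling, 11 with no filter, 4 with only the groups compared, 64 with a pseudocount of 0.1 and 2 to 452 without single mice. For genotype in injured discs, 222 in the main analysis, it was 1045 without the 3 libraries, 556 with voom, 2 with A8 mutants alone, 86 with no filter, 5 with only the groups compared, 93 with quantile normalization and 7 to 2253 without single mice. For genotype in intact discs, 4 in the main analysis, it was 8 with A8 and 2 with M mutants alone and 1 to 7 without single mice. The interaction gave 2 genes without the 3 libraries and 0 to 15 without single mice, against 0. Injury in mutants, 7438 in the main analysis, gave 3583 in A8 and 725 in M mutants alone.

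With A8 mutants alone the median over all members was -1.06 for genotype in injured discs, 0.097 for the interaction and -1.04 for mutant injury, and that of fast genes -1.22, -0.14 and -1.35. Single genes that changed sign there were, in mutant injury, Acta1 (-1.80), Mylpf (-0.47), Tnnc1 (-0.42), Tnnc2 (-0.93), Tnni1 (-0.16) and Ttn (-0.88), and between genotypes in injured discs Acta1 (-1.73) and Des (-0.89). With M mutants alone the signs of Atp2a1 (0.80), Ckm (0.77), Myh7 (0.31), Tnni2 (0.38), Tnnt1 (0.33) and Tnnt3 (0.44) changed in mutant injury. With voom the slow gene median for genotype in intact discs was -1.36, and Acta1 (-0.057) and Des (-0.019) between genotypes in injured discs and Acta1 (-0.0061) and Tnnc2 (-0.42) in mutant injury changed sign. A pseudocount of 0.1 gave Tnnc2 -0.44 in mutant injury. Without the 3 libraries, Des (0.38) and Tnnc1 (0.25) in wild-type injury, Tnnc1 (0.13) for genotype in intact discs and Tnnc2 (-0.039) in mutant injury changed sign.

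Leaving out single mice moved the mutant injury difference of Acta1 from -0.45 to 0.70, Atp2a1 from -0.89 to 0.32, Ckm from -1.16 to 0.14, Mylpf from -0.15 to 0.54, Tnnc2 from -0.43 to 0.49, Tnni1 from -0.13 to 0.26, Tnni2 from -0.84 to 0.096, Tnnt1 from -0.17 to 0.23, Tnnt3 from -0.62 to 0.31 and Ttn from -0.15 to 0.80. Between genotypes in injured discs it moved Acta1 from -0.51 to 0.64 and Des from -0.18 to 0.47. It moved Des from -0.38 to 0.38 and Tnnc1 from -0.55 to 0.25 in wild-type injury, and Tnnc1 from -0.67 to 0.13 for genotype in intact discs. The median spread of the members within groups was 1.04 with a pseudocount of 0.1 and 0.85 with median-of-ratios scaling, with all 32 genes above the median of all tested genes under both. It was 0.52 without the 3 libraries, with 27 of the 32 above.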
